A study of Mus musculus with 10 samples.

Results

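The genes described are 10 known targets of p53 that stop the cell cycle or switch p53 itself off: Cdkn1a, Mdm2, Ccng1, Btg2, Plk2, Psrc1, Zfp365, Ppm1d, Gtse1 and Rprm. They were taken by gene name from the annotation of Agilent 2-colour arrays of mouse colon, which held 16 probes for them among 56605 probes in all, or 10 of 25160 named genes. The study is about p53 and the end of regeneration once the colon has been injured. Of its 10 arrays, 4 compared whole colon tissue and 6 compared colon organoids, which are epithelial cultures grown from crypts.

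In tissue, 2 KO mice were each set against 1 of 2 WT mice, in both dye orientations. All 4 were male, from a cross of the tamoxifen-inducible Axin2CreERT2 driver with Trp53 fl/fl, were given tamoxifen, drank 2% DSS (a polymer that injures colon epithelium) for 5 to 7 days, and were sampled 2 months later. The driver deletes Trp53 in cells that express Axin2 when tamoxifen is given, and in their descendants, so KO tissue also holds cells with intact Trp53. Organoids came from a VillinCreERT2 by Trp53 fl/fl cross, in which the driver acts throughout the epithelium, and 2 samples each of KOWI, KO and WT were hybridised in a loop. Trp53 was deleted by 2 days in 800 nM 4OH-tamoxifen. Passages with Nutlin-3A followed for the KO, a compound that frees p53 from Mdm2 and thereby depletes cells that still have p53. KO and WT grew in full medium with 0.328 nM sWnt (surrogate Wnt), 3 µM CHIR (a GSK3 inhibitor that activates Wnt signalling), 25% R-spondin1 conditioned medium, 100 ng/ml noggin, 50 ng/ml EGF and 0.5 µM of the TGF-beta receptor inhibitor A83-01. KOWI are KO organoids kept without sWnt and CHIR, called Wnt-independent. Loss of Trp53 and selection by Nutlin-3A cannot be told apart in KO against WT, nor medium and adaptation in KOWI against KO. KOWI against WT holds all of these, and none can be told apart there. The sources used here do not say that the organoid samples came from separate mice, and p-values here reflect sample-to-sample spread that could be purely technical.

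p53 is a transcription factor that stressed cells stabilise. It halts division largely through Cdkn1a, which encodes the cyclin-dependent kinase inhibitor p21, while Mdm2 and Ppm1d, themselves p53 targets, feed back to restrain it: Mdm2 marks p53 for degradation and Ppm1d encodes a phosphatase (Wip1) that reverses its activating phosphorylation. In the intestine, p53 and p21 are known for arresting crypt cells after radiation and other damage.

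Between 42.3% and 57.3% of probes were well above background in a channel. The epithelial list of 9 markers was measured in every channel of tissue and organoids, whereas 1 of 8 fibroblast markers was measured throughout in each organoid group against 8 of 8 in each tissue group. The probe of Trp53, the targeted gene, was well above background in all 4 channels of organoid WT and in none of the 4 of KO or the 4 of KOWI. Its log2 KO over WT was -0.46 and 0.04 in the tissue pairs, and -1.07 and -0.59 in the organoid replicates. Whether the probe lies within the deleted exons was not examined.

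Across the 4 comparisons, 3 genes stood apart in organoids and 1 in tissue. In both replicates of KO and of KOWI organoids, Zfp365, Psrc1 and Ccng1 lay below WT, with log2 ratios of -3.14 to -0.70. Cdkn1a, Mdm2 and Btg2 were also below WT in all 4 of these ratios, at -0.61 to -0.04. The -3.14, of Ccng1 in KO over WT replicate 2, was fitted without 1 outlier spot and was -1.76 with it kept. The KO and KOWI ratios of a replicate share its WT sample, so these signs are not independent. How many of all genes lay below WT in all 4 was not counted. Of all genes tested, 61.5% were positive in KO over WT and 52.5% in KOWI over WT. Rprm lay below WT in both pairs of KO tissue. The best-known targets, Cdkn1a and Mdm2, stayed within 0.34 of 0 in every mean log2 ratio of the probe that stood for the gene, in the main processing. With other processing, Cdkn1a was at -0.50 to -0.30 in KOWI over WT. Mdm2 was then at -0.43 to -0.20 in organoid KO over WT and -0.43 to -0.17 in KOWI over WT. Only 1 call was made, for a probe that passed the filter through WT alone: Zfp365 fell in KOWI organoids relative to WT, as 1 of 9 members tested, where limma called 5.42% of all genes tested, and 2.05% of them as lower. In KOWI over KO, 0 of 9 members were called against 0.432% of all genes, and 2 members had an unadjusted p under 0.05, as did 1592 genes in all (14.04%).

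In KO over WT no gene tested was called. Limma called 0% of 13152 genes in tissue, where 1944 genes (14.8%) and 1 of the 10 members (Rprm) had an unadjusted p under 0.05. It called 0% of 11340 genes in organoids, where 606 genes (5.34%) and 3 of 9 members (Ccng1, Psrc1 and Zfp365) did. The median log2 ratio of the members was 0.11 in tissue KO over WT, against 0.00 for all genes. It was -0.20 in organoid KO over WT against 0.06 for all genes, -0.18 in KOWI over WT against 0.02, and 0.07 in KOWI over KO against -0.03.

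**Figure D1:**
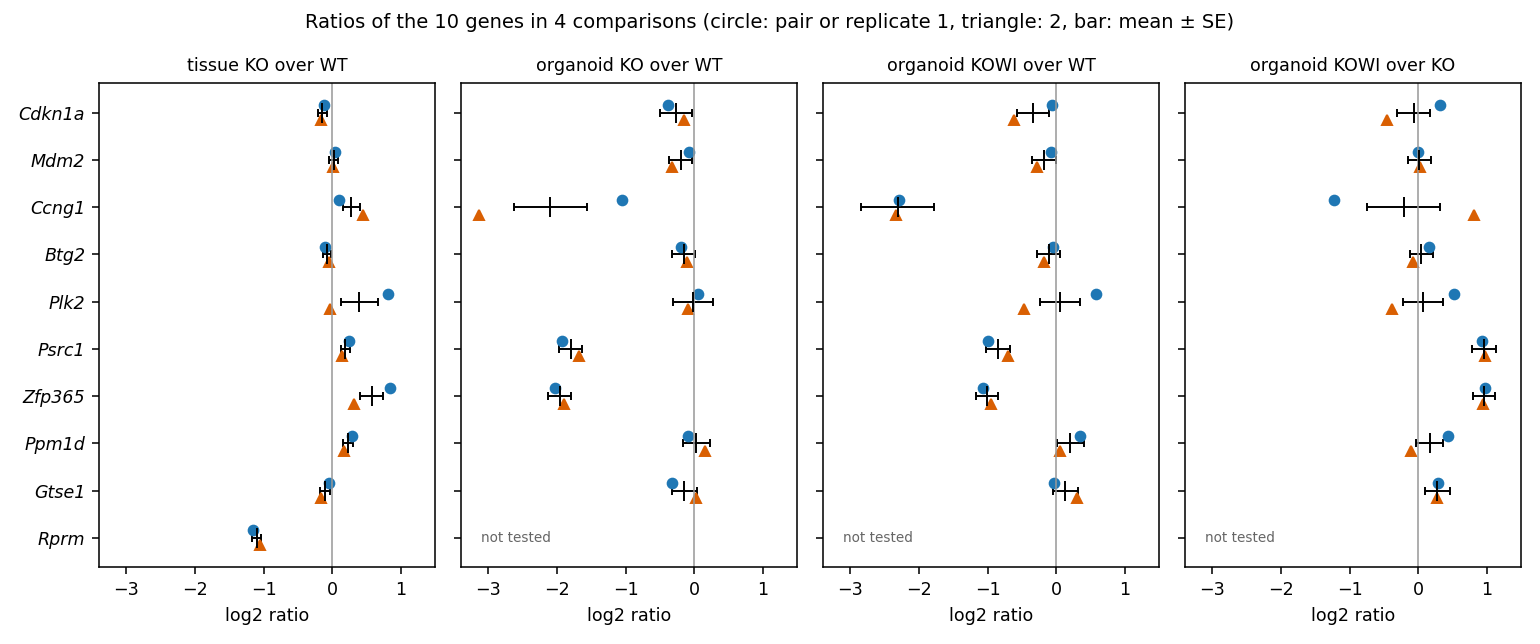
Log2 ratio of each of the 10 genes (rows) in the 4 comparisons (panels); circles are pair or replicate 1, triangles pair or replicate 2, and bars the mean with its standard error. Zfp365 and Psrc1 sit near -2 in organoid KO over WT, near -1 in KOWI over WT and near 1 in KOWI over KO, with the 2 replicates close together.

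Zfp365 encodes a zinc-finger protein that protects chromosomes against replication stress and telomere damage. Its probe lies on mm9 at chr10:67348918-67348977, minus strand. Its normalised log2 intensity was 8.31 and 7.64 in KOWI organoids, 7.34 and 6.70 in KO organoids, and 9.37 and 8.59 in WT organoids. The 3 groups did not overlap, with KO lowest and KOWI in between. How many of all genes have groups of 2 samples that separate was not counted, here or for any gene below. In KOWI over WT the log2 ratio was -1.01 (SE 0.16, n = 2 each, limma adjusted p = 0.0344), a 2.01-fold lower level. In KO over WT it was -1.96 (SE 0.16, limma adjusted p = 0.168), with -2.03 and -1.89 in the replicates. In KOWI over KO it was 0.96 (SE 0.16, limma adjusted p = 0.0786), with 0.97 and 0.94.

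The probe was well above background in 3 of 4 channels of KOWI, in 1 of 4 of KO and in all 4 of WT. It passed the filter only through WT, the group where it is highest. Its organoid ratios and p-values, the call included, are therefore given as description only. The size of the KO difference rests on a dim signal. With every channel required to pass, the probe was not tested in organoids. KO over WT was -3.57 with the scanner software's ratios and -3.51 with the authors' value table. The KOWI over WT call was lost with those ratios (limma adjusted p = 0.271 and 0.25), with outlier spots kept (0.0952) and without the replicate block (0.205). It also depended on single samples: limma adjusted p was 0.106 without KOWI replicate 1, 0.169 without KOWI replicate 2, 0.196 without KO replicate 2, 0.470 without WT replicate 1 and 0.190 without WT replicate 2. Without KO replicate 1 it was 0.0332. The log2 ratio itself stayed between -1.14 and -0.96 in all of these.

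Psrc1 encodes a microtubule-binding protein of the mitotic spindle. Its probe (mm9 chr3:108190946-108191005) passed the background test in all channels. Its normalised log2 intensity was 9.92 and 9.29 in KOWI organoids, 8.98 and 8.31 in KO organoids, and 10.91 and 9.99 in WT organoids. The order of the groups was that of Zfp365, again without overlap, although the lower WT sample lay only just above the higher KOWI sample. Its log2 ratio was -1.80 in KO over WT (SE 0.17, limma adjusted p = 0.185), -0.85 in KOWI over WT (SE 0.17, limma adjusted p = 0.0563) and 0.95 in KOWI over KO (SE 0.17, limma adjusted p = 0.0876).

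In all 3 organoid groups the Cy3-labelled sample, replicate 1, was the higher one for both genes. Dye and replicate cannot be told apart in the loop, and the model carries them as 1 term. The direct Psrc1 arrays show its size: KOWI over WT was -1.69 on 1 array, whereas WT over KOWI was -0.23 on the array with the dyes turned. For Zfp365, the member called in that comparison, KOWI over WT was -1.80 on the first of these arrays. WT over KOWI was only 0.07 on the other, so the call depends on how this term is taken out.

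Ccng1 encodes cyclin G1, which binds a phosphatase that acts on Mdm2 and is among the steadiest p53 targets across tissues. Its probe (mm9 chr11:40562427-40562486, minus strand) read 10.52 and 11.57 in KOWI organoids, 11.75 and 10.76 in KO organoids, and 12.81 and 13.90 in WT organoids, as normalised log2 intensity. Both KO and KOWI lay wholly below WT and overlapped each other. The mean log2 ratio was -2.31 in KOWI over WT (SE 0.53, limma adjusted p = 0.0715) and -2.10 in KO over WT (SE 0.53, limma adjusted p = 0.637).

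One Ccng1 spot, on a KOWI and WT array, was marked as an outlier by the scanner software and left out, so its sample values rest on 5 arrays. The 2 arrays that set KO directly against WT gave log2 ratios of -2.05 for KO over WT and 2.12 for WT over KO. With the outlier spot kept, the log2 ratio was -1.53 in KOWI over WT (limma adjusted p = 0.0560) and -1.73 in KO over WT (limma adjusted p = 0.537). The KO over WT replicates were then -1.70 and -1.76, against -1.06 and -3.14 with the spot left out. KO levels of 11.26 and 11.27 then lay below KOWI levels of 11.62 and 11.31, so the overlap of KO and KOWI depended on this spot. The authors' value table, tested the same way, gave -1.55 in KOWI over WT, which passed (limma adjusted p = 0.0482). KOWI over KO was -0.21, and 0.20 with the spot kept, so Ccng1 showed no stable difference between the 2 kinds of KO organoid.

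**Figure D2:**
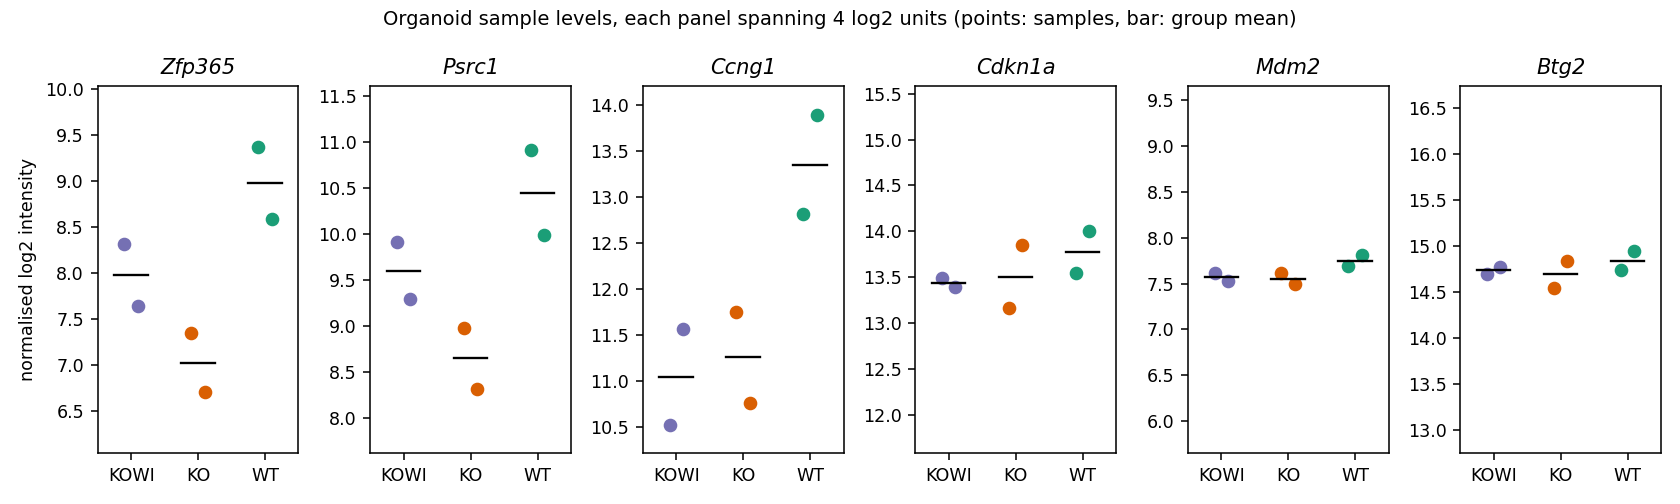
Normalised log2 intensity of 6 genes in the KOWI, KO and WT organoid samples; points are the 2 samples of a group, bars the group mean, and every panel spans the same range. Zfp365 and Psrc1 have KO lowest and KOWI in between, Ccng1 has KOWI and KO both below WT, and Cdkn1a, Mdm2 and Btg2 differ little between groups.

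Cdkn1a was read by 3 probes, of which the brightest stood for the gene in the tests. The bright probe (mm9 chr17:29237377-29237436) read 13.49 and 13.39 in KOWI organoids, 13.17 and 13.85 in KO organoids, and 13.55 and 14.001 in WT organoids. KO overlapped WT, and both KOWI samples lay below both WT samples. Its log2 ratio was -0.27 in KO over WT (SE 0.23, limma adjusted p = 1.00) and -0.33 in KOWI over WT (SE 0.23, limma adjusted p = 0.465). In tissue it was -0.12 and -0.16 in the 2 pairs (limma adjusted p = 0.433).

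The upstream probe (mm9 chr17:29227986-29228045, designed to the transcript variant NM_001111099) was well above background in all 4 channels of WT organoids and in none of the 4 channels of KOWI or of KO organoids. Its normalised log2 intensity was 7.11 and 6.74 in KOWI, 6.83 and 7.01 in KO, and 7.55 and 7.60 in WT organoids. Both WT samples were above all 4 others, and KOWI overlapped KO. The probe passed the filter only through WT, the group where it is high, and the KOWI and KO signals were at background, so no ratio or p is given for it. A lower bound from channel means came out larger than the ratio within arrays, so no bound is given either. In tissue this probe was at background in all 8 channels. The middle probe (mm9 chr17:29235299-29235358) was above background in 1 of 4 channels at most in any group, and was not tested.

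**Figure D3:**
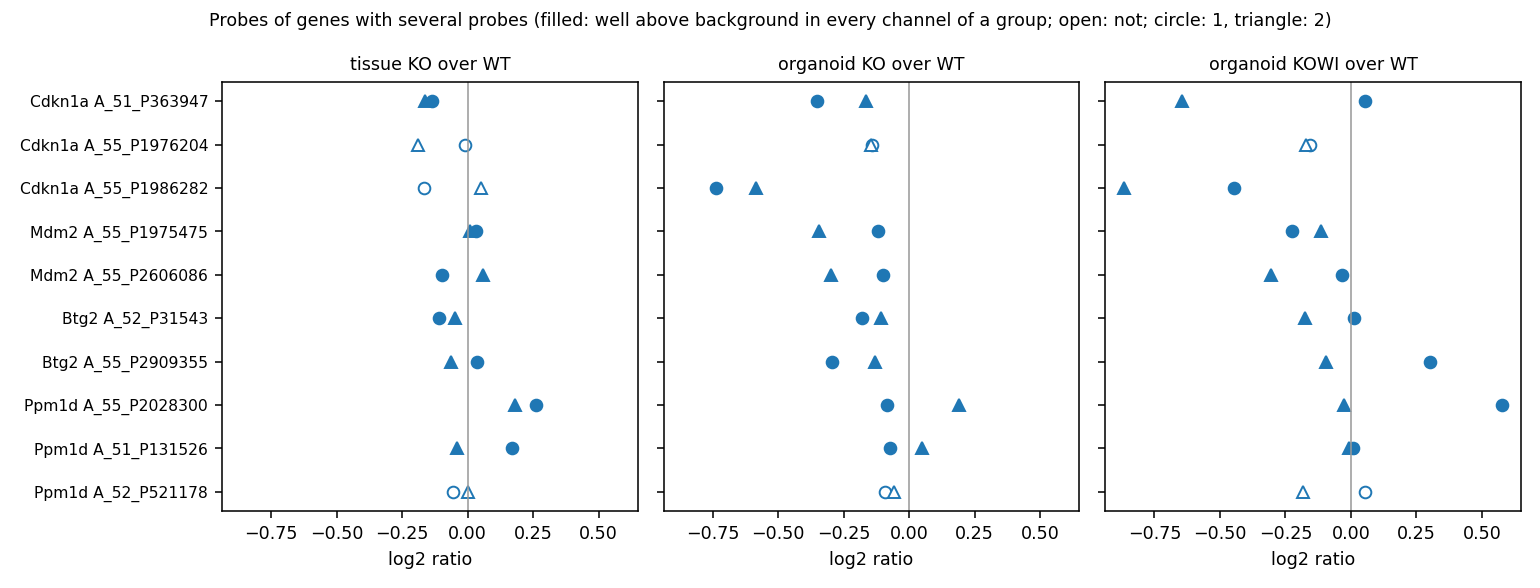
Log2 ratio of every probe of Cdkn1a, Mdm2, Btg2 and Ppm1d in 3 comparisons, with outlier spots kept; circles and triangles are replicates 1 and 2, filled where all channels of 1 group or more passed the background test. The third Cdkn1a probe from the top lies below 0 in all 4 organoid replicates where its KO and KOWI signals were at background, and its open symbols in tissue are at background too.

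The start regions of the 10 genes are of interest because p53 binds DNA as a pair of 10-base half-sites. RefSeq promoter windows (build GRCm38.p6, 250 bases before to 50 after a start) matched all 10 genes with 13 windows. They were searched for a p53-like pair of half-sites without spacer, with both half-site cores intact and at most 3 mismatches outside them. The pattern is its own reverse complement, so both strands are covered. It occurred in 0.572% of all 32851 promoters, or for 0.673% of their 27025 genes. Among the members it occurred in windows of 3 of the 10 genes, Cdkn1a, Zfp365 and Gtse1. The windows of Psrc1 and Ccng1, which also stood apart in organoids, had no match. For Cdkn1a the match lay in the window of the upstream of its 2 start sites, which are 2790 bases apart, at bases -51 to -32, with 1 mismatch. For Zfp365 it lay at bases -63 to -44, with 2 mismatches. For Gtse1 it began 1 base before 1 of its 2 starts. The 250 bases before the start of the first 2 are shown 5′ to 3′ with the match in capitals, Cdkn1a at chr17:29090729-29090978 on the plus strand and Zfp365 at chr10:67912663-67912912 on the minus strand:
Cdkn1a upstream start: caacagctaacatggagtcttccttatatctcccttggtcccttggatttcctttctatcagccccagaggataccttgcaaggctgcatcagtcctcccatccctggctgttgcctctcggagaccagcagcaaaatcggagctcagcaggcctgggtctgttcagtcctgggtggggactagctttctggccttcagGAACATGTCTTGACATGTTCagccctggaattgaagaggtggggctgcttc
Zfp365 start: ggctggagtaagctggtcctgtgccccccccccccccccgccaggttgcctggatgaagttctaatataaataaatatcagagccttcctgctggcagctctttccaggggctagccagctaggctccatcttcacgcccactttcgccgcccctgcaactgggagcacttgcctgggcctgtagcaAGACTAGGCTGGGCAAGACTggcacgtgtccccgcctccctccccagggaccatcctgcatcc
A match is a run of letters, not a measured binding site, and no match in the other windows says only that these letters are not there. The hexamers TTTGAA or TTCGAA, read on both strands, are cores of an element common in late cell-cycle genes. They were in 19.2% of all promoters, or for 21.7% of genes, and, among the members, only in the windows of Psrc1 (TTCGAA).

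The feedback genes Mdm2 and Ppm1d differed little between groups, unlike Ccng1 in organoids. Mdm2 was read by a bright probe (mm9 chr10:117126010-117126069) in tissue and by a dim probe spanning chr10:117139375-117142253 in organoids, where the bright one was marked as an outlier on both arrays of KOWI with WT. The dim probe read 7.61 and 7.53 in KOWI organoids, 7.61 and 7.49 in KO organoids, and 7.69 and 7.81 in WT organoids. All 4 KO and KOWI samples were below both WT samples, by a small margin. The log2 ratio was -0.18 in KOWI over WT (SE 0.17, limma adjusted p = 0.611) and -0.20 in KO over WT (SE 0.17, limma adjusted p = 1.00). With outlier spots kept probe by probe, a setting added after the data were seen, the bright probe gave -0.17 in KOWI over WT and -0.23 in KO over WT. In tissue, KO over WT was 0.03 and 0.01 for the bright probe, and -0.10 and 0.05 for the dim one.

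Ppm1d read 10.97 and 10.13 in KOWI organoids, 10.53 and 10.23 in KO organoids, and 10.62 and 10.07 in WT organoids, so all groups overlapped. The tissue pairs had log2 KO over WT of 0.29 and 0.18 for Ppm1d (mean 0.23, SE 0.07, limma adjusted p = 0.343). Its second probe gave 0.19 and -0.05 there, and the third, designed to another transcript, was at background in every channel.

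Of the remaining arrest genes, Btg2, an antiproliferative co-regulator that p53 induces early, read 14.70 and 14.77 in KOWI organoids, 14.54 and 14.84 in KO organoids, and 14.74 and 14.94 in WT organoids. The groups overlapped. The log2 ratio was -0.11 in KOWI over WT and -0.15 in KO over WT, and -0.10 and -0.05 in the tissue pairs. Plk2, a polo-like kinase of centriole duplication, differed between replicates more than between groups. Its log2 ratio was 0.58 and -0.46 in the KOWI over WT replicates, 0.06 and -0.09 in KO over WT, and 0.82 and -0.03 in the tissue pairs. Gtse1, a G2 and S phase protein that carries p53 out of the nucleus, had log2 ratios of 0.28 and 0.27 in KOWI over KO (mean 0.28, SE 0.18, limma adjusted p = 0.629). KO over WT was -0.32 and 0.03 in organoids, and -0.05 and -0.16 in tissue.

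The bright probes of Btg2 and Mdm2 belong to a range where ratios spread less than among dimmer genes. Among tissue genes read at a mean log2 intensity of 14 or more, the SD of log2 KO over WT was 0.11 over 3169 genes, against 0.38 over the 9983 dimmer genes. In organoid KO over WT it was 0.23 over 2608 genes against 0.32 over 8732. Over the same genes it was 0.41 against 0.62 in KOWI over WT and 0.30 against 0.47 in KOWI over KO. How far this limits the ratios of these probes was not tested.

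In tissue, Rprm had the largest ratio of the members. Rprm (Reprimo) is a membrane-associated protein that holds cells in G2 when overexpressed. Its probe (mm9 chr2:53936668-53936727, minus strand) read 8.05 and 8.20 in KO mice and 9.21 and 9.25 in WT mice, as normalised log2 intensity. The groups were separate, with little spread within each, and the share of all genes that separate in this way was not counted. The log2 ratio was -1.16 and -1.05 in the pairs (mean -1.10, SE 0.07, n = 2 pairs, limma adjusted p = 0.248), or 2.15-fold lower in KO. The probe was well above background in 3 of 4 KO channels and 4 of 4 WT channels, so it passed the filter only through WT and was not tested where every channel had to pass. It ran the same way on all 4 arrays, at -1.26 and -1.15 for KO over WT and 1.08 and 0.93 for WT over KO. In organoids the probe was at background in all 12 channels and was not tested.

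Markers of several epithelial cell types had the sign of Rprm in tissue. All 10 measured of 12 enteroendocrine markers were negative (median log2 -0.38), with medians of -0.51 in pair 1 and -0.40 in pair 2, against 0.00 for all genes. Gcg, the glucagon gene, was at -1.24 (SE 0.09), the transcription factor Neurod1 at -1.01 (SE 0.07) and Chga at -0.82 (SE 0.06), each at limma adjusted p = 0.248. The summed log2 intensity of the list was 17.03 and 17.10 in KO mice and 17.26 and 17.24 in WT mice. All 8 goblet markers (median -0.19), all 8 colonocyte markers (median -0.23) and all 9 general epithelial markers (median -0.13) were negative too. The colonocyte gene Slc9a3 was at -2.03 (SE 0.67) and the secretory-lineage factor Atoh1 at -1.69 (SE 0.27), neither called. The summed log2 intensity was 19.46 and 19.45 in KO mice against 19.67 and 19.56 in WT mice for goblet markers, and 19.39 and 19.40 in KO mice against 19.55 and 19.48 in WT mice for colonocyte markers. All 8 fibroblast markers were positive (median 0.22), with a summed log2 intensity of 19.01 and 18.98 in KO mice and 18.93 and 18.81 in WT mice. Fewer cells of a type and less RNA per cell cannot be told apart in bulk tissue, and the part of these shifts in the Rprm ratio was not tested.

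**Figure D4:**
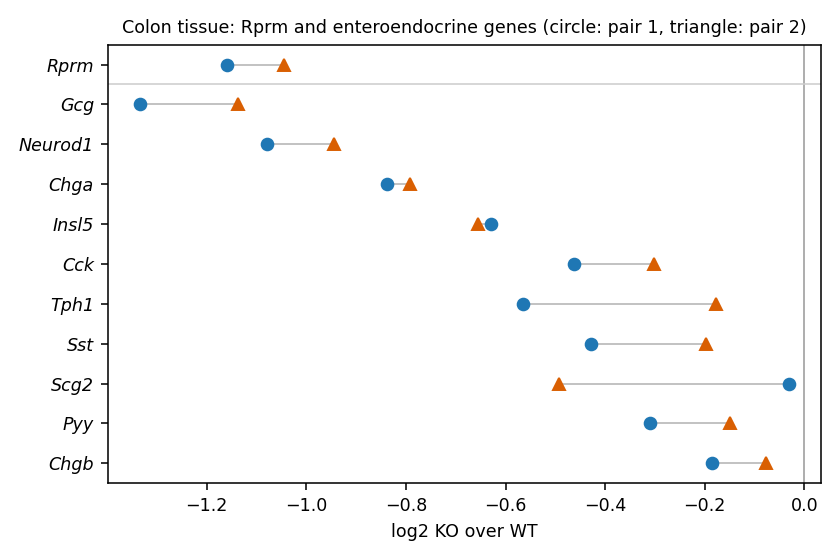
Log2 KO over WT in colon tissue for Rprm (top row) and for the 10 measured enteroendocrine genes, with a circle for pair 1 and a triangle for pair 2. All values are below 0, and Rprm lies between Gcg and Neurod1 in its mean.

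Zfp365, Psrc1 and Ccng1, the 3 genes that stood apart below WT in KO organoids, lay above WT in KO tissue. This was not so for all members, as Cdkn1a and Btg2 lay slightly below WT in both organoid replicates and both tissue pairs. In the tissue pairs log2 KO over WT was 0.84 and 0.32 for Zfp365 (mean 0.58, limma adjusted p = 0.340), 0.25 and 0.14 for Psrc1 (mean 0.19, limma adjusted p = 0.384), and 0.10 and 0.45 for Ccng1 (mean 0.28, limma adjusted p = 0.436). For Zfp365 both dye orientations of both pairs had KO above WT. For Psrc1 the Cy3 channel was the brighter on all 4 arrays, whichever genotype it held, and the sign comes from averaging the 2 orientations. The same held for Ccng1 in pair 1, at -0.04 for KO over WT and -0.19 for WT over KO. In pair 2 both orientations of Ccng1 had KO above WT.

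Tissue minus organoid log2 KO over WT was 2.54 for Zfp365 (SE 0.22), 1.99 for Psrc1 (SE 0.15) and 2.37 for Ccng1 (SE 0.72). None passed the limma test over 10087 genes, with adjusted p = 0.159 for Zfp365 and Psrc1 and adjusted p = 0.369 for Ccng1. The test called 0% of these genes, of which 1224 had an unadjusted p under 0.05. In organoids the Zfp365 probe had passed the filter only through WT, so its test is description only. The tissue samples shared 1 slide and the organoid samples another, each with its own scan. All 9 skeletal muscle markers were measured in every tissue channel, against 5 in KOWI, 3 in KO and 3 in WT organoids. Skeletal muscle markers were higher in KO tissue for all 9, with a median of 0.39 and medians of 0.53 and 0.25 in the pairs. Whether this bears on the 3 genes was not tested.

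**Figure D5:**
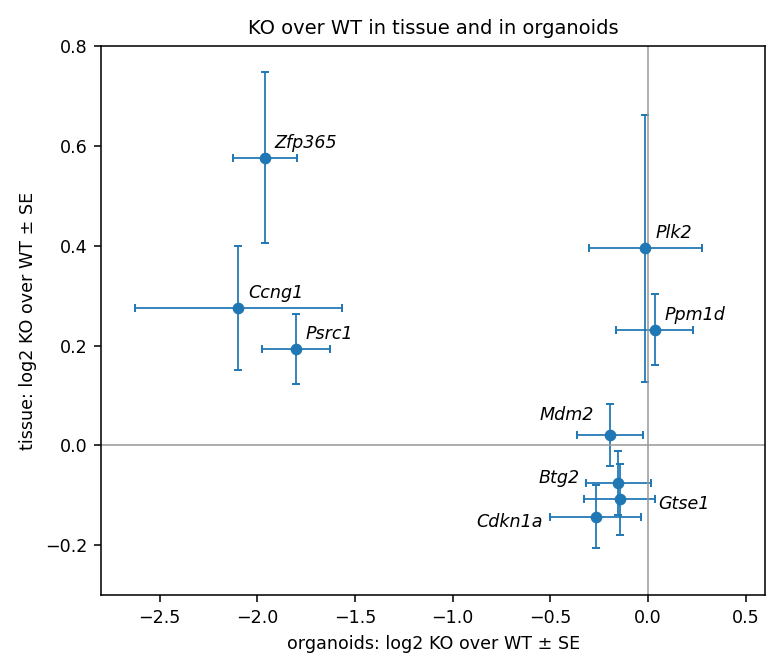
Mean log2 KO over WT with its standard error in organoids (horizontal axis) and in tissue (vertical axis) for the 9 genes measured in both. Zfp365, Ccng1 and Psrc1 lie left of -1.5 in organoids and above 0 in tissue, and the other 6 lie within 0.3 of 0 in organoids.

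Other genes were ranked by how closely their 6 replicate ratios (2 tissue pairs, 2 of organoid KO over WT and 2 of KOWI over WT) followed those of a member, as the root mean square difference over 10087 genes. These ratios share WT samples. Zmat3, an RNA-binding zinc-finger protein and p53 target, was nearest to both Psrc1 (0.27 on the log2 scale) and Zfp365 (0.41). Its ratios were 0.19 and 0.03 in tissue, -1.42 and -1.55 in organoid KO over WT, and -0.98 and -1.06 in KOWI over WT. The second nearest were Cyp2b9 for Psrc1 (0.60) and 1700007K13Rik for Zfp365 (0.44). For Ccng1 they were Tgfbi (0.65) and Pcsk5 (0.65). For Plk2 they were Zfp772 (0.17) and Nfat5 (0.18).

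Other p53 targets gave context in organoids. Of 15 tested targets of stress and repair, 12 were negative in KO over WT (median log2 -0.38, 0 called) and 11 in KOWI over WT (median -0.28), where Zmat3 fell (log2 -1.02, SE 0.16, limma adjusted p = 0.0334). Phlda3, an inhibitor of Akt signalling, was at -1.24 in KOWI over WT and -2.26 in KO over WT, and Ephx1, an epoxide hydrolase, at -1.54 and -1.75 in the same order, none of them called. Of 11 targets of death, 9 were negative in KOWI over WT (median -0.38) and 8 in KO over WT (median -0.32). Against that direction, Pmaip1, which encodes the BH3-only protein Noxa, rose in KOWI over WT (log2 1.86, SE 0.26, limma adjusted p = 0.0280). In tissue the stress and repair targets had a median log2 of 0.09 over 15 genes and the death targets -0.18 over 9, with none called.

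Among genes that Cdkn1a and the other arrest targets act beside, the CDK inhibitor gene Cdkn2a rose in KOWI organoids over WT (log2 1.31, SE 0.17, limma adjusted p = 0.0238), at 1.198 and 1.432 in the replicates. In KO over WT it was at 1.58 and 1.81 (mean 1.70, limma adjusted p = 0.185), whereas tissue KO over WT was -1.50 and -0.49 in the pairs (mean -0.997, limma adjusted p = 0.355). The other 5 CDK inhibitors were not called. Rb1, the retinoblastoma gene, fell in KOWI over WT (log2 -2.03, SE 0.20, limma adjusted p = 0.0177), with -0.42 in KO over WT (limma adjusted p = 0.964). It was the only one called of 16 G1/S genes tested, of which 12 were positive in KOWI over WT, with a median of -0.14 in replicate 1 and 0.47 in replicate 2. The checkpoint kinase gene Chek1, 1 of 9 tested p53 regulators, rose in KOWI over WT (log2 1.23, SE 0.16, limma adjusted p = 0.0249).

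Of 16 G2/M genes tested in organoids, 15 were positive in KOWI over WT (median log2 0.57) and 15 in KO over WT (median 0.50), with none called in either. Nusap1, a spindle protein, was at 1.40 and 1.05, and the spindle checkpoint kinase Ttk at 1.16 and 0.90, in the same order. The medians in replicates 1 and 2 were 0.46 and 1.09 in KOWI over WT, and 0.27 and 0.96 in KO over WT. Of all genes tested, 52.5% were positive in KOWI over WT and 61.5% in KO over WT. Psrc1 lay on the other side of 0 from most genes of the G2/M list. In tissue the G2/M median was -0.02 over 21 genes. Of the 8 tested paralogs of the members in organoids, none was called. Plk4 was at 1.01 in KOWI over WT and 0.62 in KO over WT, and Btg3 at 0.85 in both (SE 0.52), with -0.31 and 2.01 in the KOWI over WT replicates.

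Markers of mature colonocytes, goblet cells and enteroendocrine cells were lower in KOWI. All 8 colonocyte markers were negative in KOWI over WT (median log2 -1.79), of which 6 were called, and in KOWI over KO (median -1.08), of which 3 were called. In KO over WT all 8 were also negative (median -0.65), with none called. Their summed log2 intensity was 16.79 and 17.20 in KOWI, 17.95 and 18.04 in KO, and 18.54 and 18.67 in WT organoids. Like Zfp365 and Psrc1, these markers were lower in both KO and KOWI than in WT. The lowest group was KOWI for the markers and KO for Zfp365 and Psrc1. All 8 goblet markers were negative in KOWI over WT (median -0.44, 2 called) and in KOWI over KO (median -0.75, 1 called), and 7 of 8 were positive in KO over WT (median 0.26). All 8 measured enteroendocrine markers were negative in KOWI over WT (median -0.61) and in KOWI over KO (median -1.06), and positive in KO over WT (median 0.56), with none called. The part of these shifts in the members' ratios was not tested.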

How the data were processed

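Agilent Feature Extraction 12.2.0.7 gave each spot's intensity, per the file headers. The deposited log10 values are ratios of Cy5 to Cy3. A value table by the authors holds log2 ratios. Limma is named in the submitters' processing notes, its steps are not given in the sources used here, and the centring is unknown. Here, mean and background intensity were processed in R 4.3.3 with limma 3.58.1: normexp background correction (offset 50) and, array by array, loess. Control and outlier spots were left out. Outlier spots were 0.808% to 4.41% on the tissue arrays and the organoid arrays of KO with WT, and 13.7% to 16.3% on the 4 arrays with KOWI. A gene was read from its brightest probe among those that all channels of some group showed well above background.

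In tissue, the dye-swapped arrays of a pair were averaged and the 2 pair ratios tested against 0. In organoids, 6 sample values were fitted to the loop by least squares and compared between groups, with replicate number as block. Replicate 1 was always Cy3 and replicate 2 always Cy5, so number and dye cannot be told apart; deviations of same-numbered samples correlated at 0.20, 0.17 and -0.01 across genes. P-values are limma's, adjusted by Benjamini-Hochberg over all genes tested, with a threshold of 0.05. The number of arrays limits the precision, and sample levels are normalised log2 intensity for comparison within a probe only. In 1 tissue label a replicate number differs from the title, whose number was used. The functions were tested on simulated data. Probe positions are on mm9 per the file headers; whether they are exonic or in a UTR was not annotated here. The members and lists were chosen with earlier results of these data known. Genes are named by fixed rule: members; list genes that passed, or the 2 with the largest ratio of a list; and the nearest genes of up to 4 members. Gcg, Neurod1, Chga, Slc9a3 and Atoh1 were picked after their values were seen.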

Additional observations from a re-analysis of the deposited data

Results flagged for a closer look

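Log2 KO over WT had opposite signs in both tissue pairs and both organoid replicates for 4 genes, each read from the probe that stood for it. The share of all genes with such signs was not counted, so the number 4 has no background to be set against. Of all genes tested, 48.9% were positive in tissue KO over WT and 61.5% in organoid KO over WT. Tissue minus organoid log2 was 2.54 for Zfp365, 1.99 for Psrc1, 2.37 for Ccng1 and 0.22 for Mdm2, each with tissue above organoids. The limma test of that difference gave adjusted p = 0.159 for Zfp365 and Psrc1, 0.369 for Ccng1 and 0.586 for Mdm2, so none passed the threshold. Mdm2 was read by a bright probe in tissue and a dim one in organoids. On the dim probe the tissue pairs were -0.10 and 0.05, so the opposite signs do not hold on that probe.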

How the results depend on the processing

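Counts over all genes depended on the setting. In KOWI over WT, limma called 615 genes, against 139 with the scanner software's ratios, 316 with the authors' value table, 270 without the filter on dim probes, 395 with every channel above background, 61 with outlier spots kept, 350 with the mean over probes and 3802 with arrays taken as independent. Without the replicate block it called 454, and 41 in KOWI over KO, and Zfp365 was no longer called in KOWI over WT (limma adjusted p = 0.205). In KOWI over KO it called 49, against 24 with an offset of 16, 0 with the scanner software's ratios, 2 with the value table, 20 without the filter, 24 with every channel above background, 0 with outlier spots kept, 27 with the mean over probes and 2476 with arrays taken as independent. KO over WT called 932 genes in tissue and 768 in organoids with arrays taken as independent, and 1 in organoids with the mean over probes. Arrays taken as independent hold the same samples more than once, so counts under that setting do not reflect the spread between samples. Leaving out 1 sample gave 0 to 6 in organoid KO over WT, 19 to 789 in KOWI over WT and 0 to 220 in KOWI over KO. The count moved by over 1.5 times without any sample but KO replicate 1 in KOWI over WT (lowest without KOWI replicate 2), and without any but WT replicate 1 in KOWI over KO. The cause was not tested.

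Small ratios changed sign. Tissue KO over WT of Mdm2 was -0.00042 with the mean over probes and -0.0224 with probes under a log2 intensity of 14. Organoid KO over WT was 0.0022 for Plk2 with outlier spots kept and -0.0196 for Ppm1d with the mean over probes. KOWI over KO was -0.00066 for Mdm2 and -0.0520 for Btg2 with the scanner software's ratios, -0.0246 for Btg2 and 0.21 for Ccng1 with the value table, and 0.20 for Ccng1 with outlier spots kept.

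Leaving out 1 sample changed the sign within these log2 ranges. In tissue they were -0.34 to 0.38 for Mdm2, -0.0771 to 0.63 for Ccng1, -0.51 to 0.35 for Btg2, -0.10 to 0.56 for Ppm1d and -0.34 to 0.13 for Gtse1. In organoid KO over WT they were -0.44 to 0.0654 for Cdkn1a, -0.34 to 0.26 for Plk2, -0.17 to 0.23 for Ppm1d and -0.31 to 0.0348 for Gtse1. In KOWI over WT they were -0.40 to 0.57 for Plk2 and -0.0488 to 0.29 for Gtse1. In KOWI over KO they were -0.32 to 0.34 for Cdkn1a, -0.0542 to 0.12 for Mdm2, -0.21 to 0.29 for Ccng1, -0.0175 to 0.16 for Btg2, -0.44 to 0.53 for Plk2 and -0.0376 to 0.37 for Ppm1d. In tissue these fits dropped the pairing. Ccng1 gave no value with arrays taken as independent in organoids, nor without some organoid samples, since 1 of its spots was missing. Rprm in tissue passed with arrays taken as independent (limma adjusted p = 0.0141). That setting counts both dye orientations of a mouse pair as replicates, so its p does not measure the spread between pairs. With the pair as the replicate, limma adjusted p was 0.248.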
